A study of Mus musculus with 2 samples.

Results

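Interferon regulatory factors (IRFs) are transcription factors that bind DNA through a shared N-terminal domain and switch on, or hold back, the genes of antiviral and inflammatory defence. IRF3 and IRF7 are activated by kinases downstream of viral nucleic acid sensing and drive transcription of type I interferons. Secreted interferon then acts through its receptor and JAK kinases on STAT2, which joins IRF9 in the complex ISGF3 to bind interferon-stimulated response elements (ISREs), while IRF1, IRF2, IRF5 and IRF8 act on overlapping sites in fibroblasts or in blood cells.

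The 8 genes described here are Irf1, Irf2, Irf3, Irf5, Irf7, Irf8, Irf9 and Stat2, chosen by name as a family, with earlier results of these arrays known. Each was read from the probe set that names it alone, and from the brightest one where several do, out of 19946 genes so read. Fibroblasts grown from mouse embryos had been given an adenovirus that carries LacZ, a bacterial enzyme gene, and this held for both conditions. One culture then received DMSO, the solvent, and the other received celastrol, a quinone methide triterpenoid of the thunder god vine, at 250 nM, in each case for 7 h in DMEM with 1% FBS. The labels state neither the number of embryos behind the cells nor whether they were a line, and cells without the virus were not analysed here. RNA of each culture was hybridised to 1 Affymetrix whole-transcript array, so every difference compares 1 culture with 1 other, has no replicate check, and carries no p-value or error. Effects of the treatment, the culture and the array cannot be told apart here.

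Of the 8 genes, 7 were detected, which here means a value above 5.73 on the log2 scale in at least 1 array. That limit is the 95th percentile over the values of 1205 receptor probe sets (olfactory and vomeronasal genes, which fibroblasts should not express). Of all 19946 genes, 13899 passed it. Among fibroblast markers 14 of 15 were detected, with the collagen gene Col1a1 at 12.2 with DMSO and 11.7 with celastrol, Col1a2 at 11.9 and 11.5, and the growth factor receptor gene Pdgfrb at 11.1 and 10.7. Of these 14, 10 were lower and 4 higher with celastrol, where 48.1% of all detected genes were higher. Their differences ran from -0.88 for S100a4 to 0.48 for Twist1. The summed level of the list was 15.7 with DMSO and 15.5 with celastrol. Endothelial markers (5 of 8 detected, summed level 9.10 and 9.14) and epithelial markers (5 of 6 detected, 8.64 and 8.68) were checked in the same way. Most of these markers of other cell types passed the limit, so passing it need not mean expression.

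Promoter sequences are shown for Irf1, which had the lowest difference, for Irf2, its antagonist, and for the matches of Stat2 and Irf8, because these windows hold the interferon and NF-kB response motifs of the family. They come from the RefSeq table of GRCm38.p6, which gave windows of 300 bases, 250 before and 50 after a transcript start, for all 8 genes, 11 windows in all because Irf1, Irf8 and Irf9 have 2 starts each. Only bases before the start are printed, 5′ to 3′ on the gene's strand, and capitals mark motif matches. The Irf1 and Irf8 stretches lie outside annotated genes, the first 21 bases of the Irf2 stretch lie in the lncRNA gene Gm16675, and the Stat2 stretch lies within the span of Apof.
Irf1, first start, chr11:53769764-53770013, plus strand: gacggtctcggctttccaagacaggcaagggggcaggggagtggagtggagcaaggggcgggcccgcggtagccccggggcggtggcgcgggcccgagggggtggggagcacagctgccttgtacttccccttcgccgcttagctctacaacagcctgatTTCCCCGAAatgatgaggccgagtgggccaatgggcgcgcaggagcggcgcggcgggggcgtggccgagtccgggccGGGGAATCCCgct
Irf2, chr8:46739495-46739744, plus strand: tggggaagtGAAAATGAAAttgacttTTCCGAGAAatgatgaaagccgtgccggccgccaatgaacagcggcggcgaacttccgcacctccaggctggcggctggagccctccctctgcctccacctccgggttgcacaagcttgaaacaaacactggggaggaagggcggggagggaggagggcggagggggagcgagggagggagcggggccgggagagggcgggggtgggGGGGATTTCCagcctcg
Stat2, chr10:128270266-128270295, plus strand: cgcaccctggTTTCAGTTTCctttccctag
Irf8, first start, chr8:120736177-120736223, plus strand: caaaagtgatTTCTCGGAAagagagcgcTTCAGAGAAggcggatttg

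In all, 5 motifs were searched on both strands. The ISRE was taken as GAAA, any 2 bases and GAAA, and 3.44% of the 32851 promoter windows in the table hold it. Of the members' windows, those of Stat2 (222 to 213 bases before the start) and Irf2 (241 to 232) hold 1 each. The gamma-activated site (GAS), the STAT dimer motif TTCNNNGAA, is found in 8.30% of all windows. Irf1 has 1 (90 to 82 bases before its first start), Irf2 has 1 (224 to 216), and Irf8 has 2 before its first start (171 to 163 and 153 to 145). The κB motif of NF-kB is found in 8.46% of windows, and close to the start in those of Irf1 (13 to 4 bases before it) and Irf2 (17 to 8). No ISRE, GAS or κB match overlaps another one in these windows. The antioxidant response element, searched as TGACNNNGC and present in 12.4% of windows, matched before the start of Irf7 and before the second start of Irf8. The heat shock element, searched as GAA, TTC and GAA with any 2 bases between neighbours and present in 0.603% of windows, matched in none of the 11. Windows of Irf3, Irf5 and Irf9 hold none of the 5 motifs, which says only that these letters are absent there. All 250 bases before the Irf5 start lie within the annotated Irf5 gene, so sequence before that gene was not searched. The bases before the second starts of Irf1, Irf8 and Irf9 likewise lie within those genes, and so does the antioxidant match of Irf8. Of the bases before the Irf7 start, 75 lie within Irf7.

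**Figure D1:**
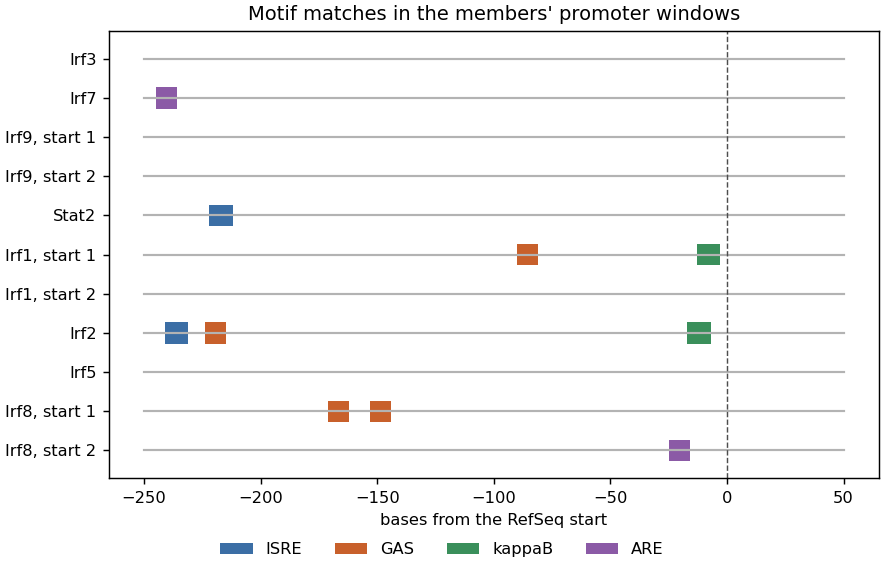
Motif matches in the 11 RefSeq promoter windows of the 8 genes, drawn by distance in bases from the transcript start (dashed line), with coloured boxes for the ISRE, GAS, κB (kappaB) and antioxidant (ARE) motifs. Irf1 and Irf2 both carry a GAS and a κB match, Stat2 and Irf2 an ISRE, and Irf3, Irf5 and Irf9 none of these. Bases drawn before the Irf5 start, and before the second starts of Irf1, Irf8 and Irf9, lie within those annotated genes.

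The members did not move as a group. Irf1 and Irf5 were lower with celastrol by 1.93-fold and 1.64-fold, Stat2 was 1.32-fold lower and Irf9 1.33-fold higher, while Irf2, Irf3 and Irf8 lay within 1.08-fold of their DMSO values. Of the 7 detected members 4 had a higher and 3 a lower value, where 48.1% of all detected genes were higher. The median difference was 0.02 on the log2 scale, beside a median of -0.01 over all detected genes. At least 1.5-fold lower were 2 of the 7, Irf1 and Irf5, beside 4.68% of all detected genes, and 0 were at least 1.5-fold higher, beside 6.19%. With a lower threshold, 0.32 on the log2 scale, the counts were 3 lower (background 16.0%) and 1 higher (background 14.8%). None reached 2-fold in either direction, where the backgrounds are 0.662% lower and 1.89% higher. The middle 95% of detected genes differed by between -0.71 and 0.91, and Irf1 and Irf5 lay below that range. For scale, the middle 95% of the receptor probe sets, which are dim, differed by between -0.42 and 0.41, a spread that does not contain variation between cultures.

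**Figure D2:**
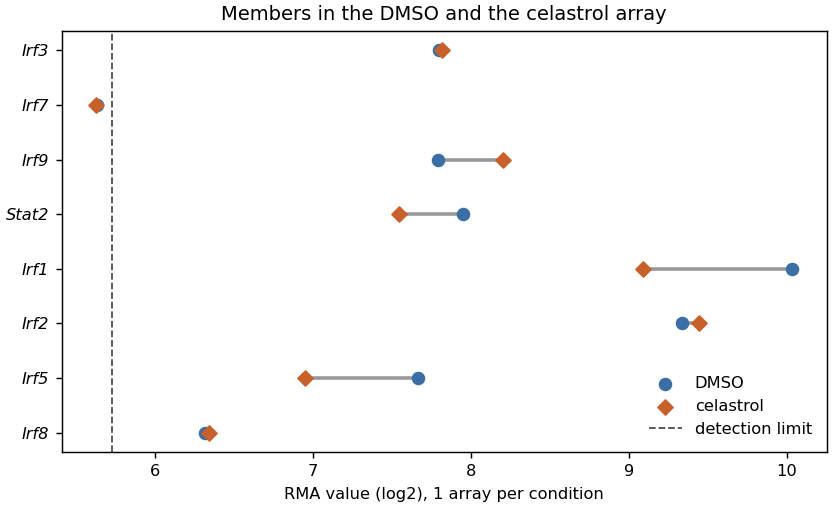
Deposited log2 values of the 8 genes with DMSO (circles) and celastrol (diamonds), 1 array each, with the detection limit of 5.73 as a dashed line. Irf1 and Irf5 show the widest gaps, and Irf7 lies under the limit in both arrays. Positions of different genes are not comparable, because each probe set binds with its own efficiency.

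The pair activated by virus sensing differed little between the arrays. Irf3, the constitutive factor that is phosphorylated when viral nucleic acid is sensed, stood at 7.80 with DMSO and 7.82 with celastrol, a log2 difference of 0.02. Of all detected genes 94.7% had a difference at least as large in size. Irf7, which amplifies the response because interferon itself induces it, was under the limit in both arrays at 5.63 and 5.63. Its difference therefore describes background, and no fold is given.

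Stat2 and Irf9, which act together in ISGF3, went opposite ways. Stat2, the subunit that carries the transactivation domain, stood at 7.95 with DMSO and 7.55 with celastrol, a difference of -0.40. Irf9, the subunit that recognises the ISRE, stood at 7.79 with DMSO and 8.20 with celastrol, a difference of 0.41. These differences were 0.81 apart on the log2 scale, so the ratio of Irf9 to Stat2 signal was 1.76-fold higher in the celastrol array. Neither was extreme: 21.8% of detected genes had a difference at least as large in size as that of Irf9, and 22.6% as that of Stat2. Of the pair, the Stat2 window printed above holds an ISRE match, and the Irf9 windows hold none.

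Of Irf1 and Irf2, an activator and an antagonist that compete for the same sites, Irf1 was lower and Irf2 differed little. Irf1, which interferon gamma and NF-kB signalling induce, stood at 10.03 with DMSO and 9.09 with celastrol, a difference of -0.95, and 123 of 13899 detected genes (0.885%) were as low or lower. A second Irf1 probe set, annotated to a single cDNA clone, gave 6.82 and 6.28, a difference of -0.55 or 1.46-fold lower. Both probe sets were thus lower with celastrol, and only 1 of them passed 1.5-fold. The probe sets were 0.40 apart in their difference, more than the median of 0.10 over 761 genes with several detected probe sets, and 15.4% of those genes had a gap at least as wide. Irf2 stood at 9.33 with DMSO and 9.44 with celastrol, a difference of 0.11. Of all detected genes 71.0% had a difference at least as large in size as that of Irf2. The ratio of Irf2 to Irf1 signal was 2.08-fold higher with celastrol, from the brighter Irf1 probe set. Most of that shift comes from Irf1, and it would be smaller with the second probe set. Both promoters, printed above, carry a GAS and a κB match.

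Irf5 and Irf8 are best known from blood cells, Irf5 as an activator of inflammatory cytokine genes in macrophages and Irf8 as a factor of myeloid and B cell development. Irf5 stood at 7.66 with DMSO and 6.95 with celastrol, a difference of -0.72, and 335 detected genes (2.41%) were as low or lower. Irf8 stood at 6.32 and 6.34, a difference of 0.03, close above the detection limit in both arrays. Leukocyte markers were set beside these genes, since blood cells could contribute such transcripts. Of 15 measured markers 7 were detected and 8 were under the limit in both arrays, and the summed level over all 15 was 9.65 with DMSO and 10.1 with celastrol. Ptprc, the common leukocyte antigen, was under the limit in both arrays (5.50 and 5.71), as was Spi1, the myeloid factor PU.1 (4.89 and 5.67). The receptor gene Csf1r stood at 5.99 and 6.25, and Cd68, a lysosomal membrane protein that is not restricted to macrophages, stood at 6.86 and 8.33, 2.76-fold higher. Cd14, a coreceptor for bacterial lipopolysaccharide, was 1.63-fold higher (6.94 and 7.65). These 2 had the largest differences among the detected markers, while Fcer1g and the undetected Itgax were each at -0.30. Tyrobp passed the limit through the celastrol array alone (5.69 and 5.78), and Fcer1g through the DMSO array alone (5.75 and 5.45). Cd68 and Cd14 also had the highest values of the list in both arrays, so they weigh most in the marker sum. That sum was higher, Irf5 was lower and Irf8 differed little, and whether blood cells contributed to these values was not tested. In a culture measured in bulk, fewer cells of a type and less RNA per cell cannot be told apart.

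**Figure D3:**
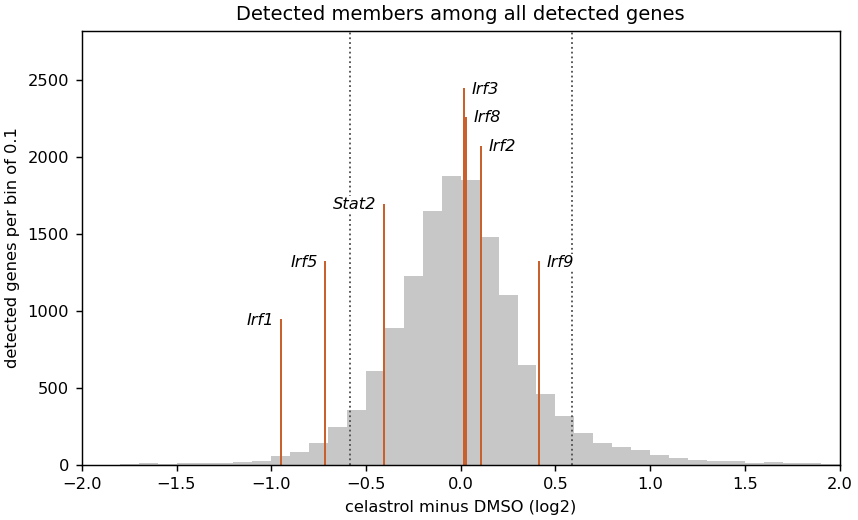
Histogram of the celastrol minus DMSO difference (log2) of the 13899 detected genes, in bins of 0.1, with vertical lines at the 7 detected members and dotted lines at 1.5-fold. Line heights only make room for the names, and 22 detected genes lie outside the plotted range of 2 either way. Irf1 and Irf5 fall in the lower tail, Stat2 and Irf9 on the shoulders, and Irf2, Irf3 and Irf8 in the centre.

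Genes next to the members on the chromosome differed by less than 1.5-fold. The nearest protein-coding gene on each side of each member was looked up in RefSeq, 16 in all, and 15 were measured, 10 of them detected. Their differences ran from -0.32 to 0.26, and 0 of the 15 reached 1.5-fold. Over all detected genes 6.19% were at least 1.5-fold higher and 4.68% lower, so 0 of 15 does not set the neighbours apart. Il5 and Slc22a5, the neighbours of Irf1, were lower as Irf1 was, but by less, with differences of -0.19 (undetected) and -0.17. Around Irf5, Kcp stood at -0.11 and Tnpo3, which overlaps Irf5 in RefSeq and encodes a nuclear import receptor, at 0.17. Apof, which overlaps Stat2, was undetected, and Rnf31, which encodes a subunit of the linear ubiquitin ligase and lies beside Irf9, stood at -0.06. Rec8, on the other side of Irf9, passed the limit through the celastrol array alone (5.6 and 5.75). Probe sets of overlapping genes can share signal, so the values of Irf5 and Stat2 carry that limit.

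Upstream of the factors, all 6 interferon receptor genes were lower and kinase and adaptor genes went both ways. The lists of pathway genes used here were chosen with earlier results of these arrays known, so their counts describe the arrays and support no direction. For comparison with each split of higher and lower genes, 48.1% of all detected genes were higher with celastrol. All 9 interferon receptor and JAK kinase genes were detected, 7 lower and 2 higher, with a median of -0.29, and 1 (11.1%, beside 4.68% of all detected genes) was at least 1.5-fold lower. That gene was Il10rb, a receptor chain shared by interferon lambda and IL-10, which was lower by 1.63-fold (9.13 with DMSO, 8.43 with celastrol). Ifnar2 and Ifnar1, the chains of the type I interferon receptor, had differences of -0.52 and -0.29, and Ifnlr1 (-0.22) passed the limit through the DMSO array alone. Of the kinase genes, Jak1 and Jak2 had differences of 0.28 and 0.25, and Tyk2, which serves the type I receptor, had -0.51. Among 14 detected adaptors and kinases upstream of IRF3, IRF5 and IRF7, 9 were higher and 5 lower, with a median of 0.07, and 1 was at least 1.5-fold higher (7.14%, close to the 6.19% of all detected genes). This was Azi2, a TBK1-binding adaptor, which stood 2.22-fold higher, at 8.59 with DMSO and 9.74 with celastrol. Tbk1, the kinase of IRF3, was 1.39-fold higher, and its relative Ikbke was 1.32-fold lower. Sting1, the adaptor of cytosolic DNA sensing, stood near the limit at 6.16 and 5.93.

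No detected ligand or inhibitor gene reached 1.5-fold. Ifnb1, the interferon beta gene that IRF3 drives, was under the limit in both arrays, at 4.93 and 4.59. Of 8 measured interferon genes 4 passed the limit, with a median of 0.23 and no difference as large as 0.32. Over all detected genes 16.0% were lower and 14.8% higher by at least that much. The 4 were Ifng, Ifna2, Ifna5 and Ifnl2, and the values of the last 3 are uncertain because the genes of their families are close copies. Ifng passed through the celastrol array alone (5.69 and 5.99). Of 13 detected inhibitors of interferon signalling 4 were higher and 9 lower, with a median of -0.07, and 0 reached 1.5-fold. Over all detected genes 4.68% were at least 1.5-fold lower and 6.19% higher, and lists this short can hold 0 at such shares. Pias2 and Pias1, both of the PIAS family of STAT inhibitors and SUMO ligases, had differences of 0.51 and -0.53. Usp18, which blocks the type I receptor and is itself interferon-induced, was close above the limit at 5.88 and 6.10, and Pias3 was at -0.24.

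Related factors that are no members went both ways as well. Of 7 detected STAT and IRF relatives 2 were higher and 5 lower, with a median of -0.23, and 1 reached 1.5-fold in each direction, beside 4.68% lower and 6.19% higher over all detected genes. Stat5a, a STAT of growth hormone and cytokine signalling, was 1.83-fold lower (9.46 with DMSO, 8.59 with celastrol), and its close paralogue Stat5b was 1.42-fold lower. Irf2bp2, a corepressor that binds IRF2, was 1.75-fold higher (9.52 with DMSO, 10.33 with celastrol), whereas Irf2 itself had a difference of 0.11. Stat6, the IL-4 factor, was 1.37-fold higher. Likeness to a member was not ranked, since with 2 arrays the pattern of a gene is a single difference.

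Downstream, part of the target genes were lower. Of 28 detected ISGF3 targets 18 were lower and 10 higher, with a median of -0.21. At least 1.5-fold lower were 5 of them (17.9%, beside 4.68% of all detected genes) and 1 was higher (3.57%, beside 6.19%). Cxcl10, an interferon-inducible chemokine, had values of 9.08 with DMSO and 8.01 with celastrol, lower by 2.10-fold, and Samd9l, an antiviral restriction factor, was 1.72-fold lower. The other three were named after their values were seen: Ddx58, which encodes the RNA sensor RIG-I (1.71-fold), Ifit3, an RNA-binding antiviral protein (1.58-fold), and Ube2l6, the E2 enzyme of ISG15 (1.54-fold). Herc6, the murine ISG15 ligase, went the other way, 1.60-fold higher (7.44 with DMSO, 8.12 with celastrol), and Dhx58, which encodes the RIG-I relative LGP2, was 1.44-fold higher. A further 9 of the 37 measured targets were under the limit in both arrays, among them Ifit1, Mx1, Mx2 and Rsad2, so their direction cannot be read. Oas1a passed the limit through the celastrol array alone (5.69 and 5.94), so it could only count as higher.

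Of 16 detected IRF1 and interferon gamma targets 9 were lower and 7 higher, with a median of -0.10, and 5 were at least 1.5-fold lower (31.2%, beside 4.68%) and 0 higher. Nos2, the inducible nitric oxide synthase, was 5.69-fold lower (9.99 with DMSO, 7.48 with celastrol), and Vcam1, which tethers leukocytes, was lower by 3.54-fold. NF-kB also drives both genes and Icam1, another adhesion molecule, which was 1.85-fold lower and was named after its value was seen. Psmb10, an immunoproteasome subunit, and Psme2, a subunit of the proteasome activator PA28, were 1.61-fold and 1.56-fold lower and were named in the same way. Against these stood B2m, the light chain of MHC class I, at 12.97 and 13.10, and Nlrc5, the transactivator of MHC class I genes, with a difference of 0.14. The Nlrc5 value depended on the probe set, and the mean over all its probe sets gave 0.56. The 9 targets under the limit were not counted. Cxcl9 passed the limit through the celastrol array alone (5.67 and 5.73), so it could only count as higher.

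**Figure D4:**
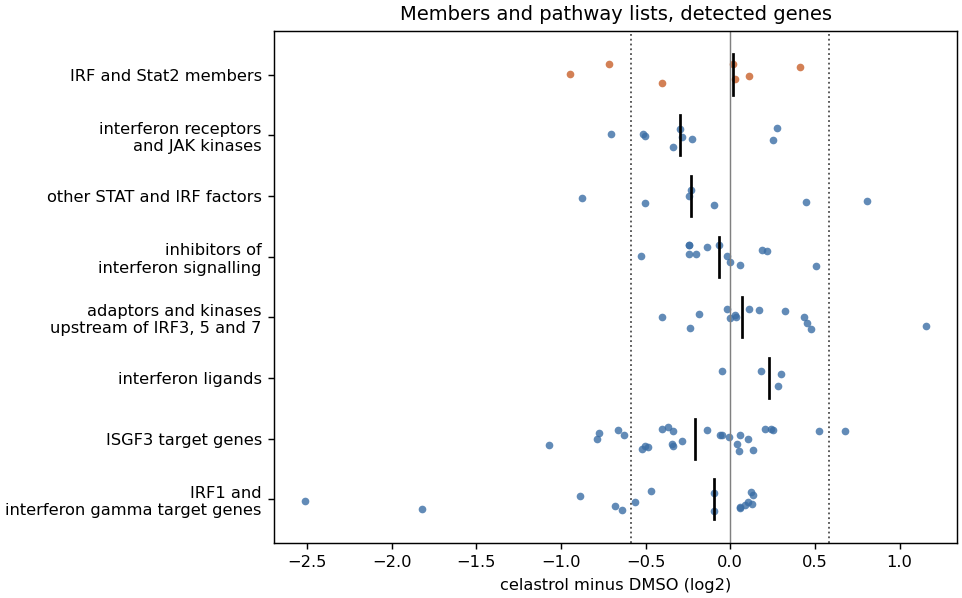
Celastrol minus DMSO difference (log2) of each detected gene in the member set (orange) and in the 7 pathway lists (blue), with a black bar at each median and dotted lines at 1.5-fold. Vertical scatter within a row has no meaning. Nos2 and Vcam1 stand far to the left among the IRF1 targets, whereas Azi2 is the rightmost point.

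Other ways of scaling the same arrays left the order of the members nearly as it was. Across the reported value, quantile normalization, subtraction of a lowess trend, subtraction of the median difference and the mean of all probe sets, Irf1 ran from -0.95 to -0.75, Irf5 from -0.72 to -0.68, Stat2 from -0.40 to -0.35 and Irf9 from 0.41 to 0.47. Irf2 ran from 0.11 to 0.17, Irf3 from 0.02 to 0.07 and Irf8 from 0.01 to 0.04. Only Irf7, which was undetected, changed sign, from -0.03 to 0.01. Subtracting the median cannot change the order, and averaging probe sets can move Irf1 alone, so these settings test little.

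**Figure D5:**
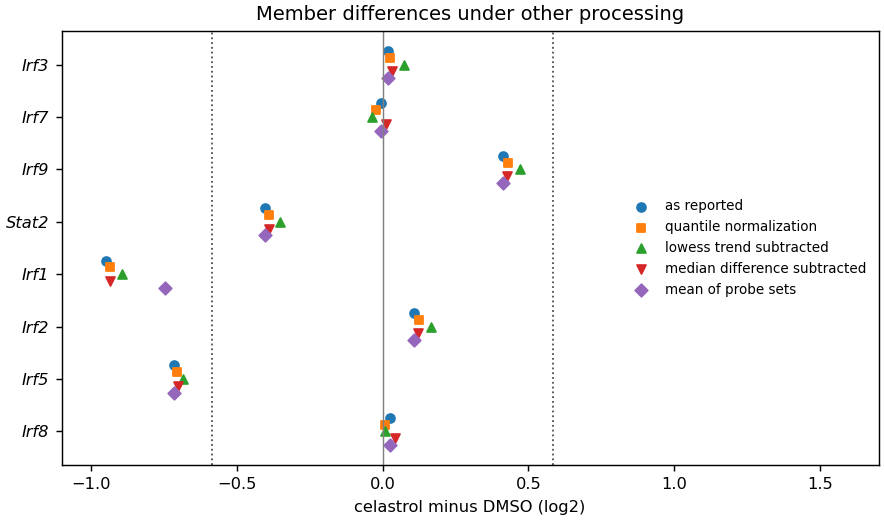
Celastrol minus DMSO difference (log2) of the 8 genes as reported and under 4 other settings, with dotted lines at 1.5-fold. Irf1 and Irf5 stay left of the lower line in all 5 settings, and the widest shift is that of Irf1 when its probe sets are averaged.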

How the data were processed

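Total RNA was purified by Trizol and column, and labelled with biotin, per the labels' protocols. The authors deposited log2 values from RMA (background correction, quantile normalization and a summary per probe set), a tool that the submitters' processing notes name without version or settings. The log2 base was read from the values, which ran from 2.73 to 14.5 with array medians of 6.33 and 6.35. RMA compresses differences of dim probe sets. Scanner files were not used.

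Of 35556 probe sets, GEO's platform annotation named 1 gene for 21797, several for 1613 and none for 12146, and only the first entered. Symbols were updated by Entrez identifier from the GRCm38.p6 gene table (21706 matched). The probe set with the highest mean stood for a gene, and differences are celastrol minus DMSO. Folds are 2 raised to the size of that difference. No test was possible with 1 array per group. List members are described by counts and medians. The named list genes are the 2 highest and the 2 lowest detected of each pathway list, with a few fixed by name. The members, lists, limit and alternatives were chosen with earlier results of these data known. The counting was checked on simulated data, with shifts larger than that of any member and noise smaller than the spread of the receptor probe sets. That check covers the code and not the precision of the differences. The scripts ran in Python 3.11.15 (pandas 2.3.3, numpy 2.4.6, statsmodels 0.14.6).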

Additional observations from a re-analysis of the deposited data

How the results depend on the processing

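Other scalings, the mean of probe sets, a stricter detection limit (6.34, the median over both arrays) and no limit left the counts at 2 members at least 1.5-fold lower and 0 higher. Changing the limit could not alter these counts, because Irf1 and Irf5 lie above 6.34 in both arrays and Irf7 differs by -0.004. Averaging probe sets could change Irf1 alone, the only member with 2 of them. A threshold of 0.32 on the log2 scale gave 1 member higher, and a threshold of 2-fold gave 0 lower. A shift was judged against 0.21, the SD of the receptor differences, since there are no replicates. Of 786 recalculated values of members, lists and other named genes, 3 moved by more than this or changed their count beyond 1.5 times, and 0 called differences reversed. Many of them could not move, so the count is no support. The mean of probe sets repeats the value of a gene with 1 probe set, and the subtracted median was only -0.01. List medians were judged against the same 0.21, which comes from single probe sets. The ISGF3 target median ran from -0.34 with the stricter limit to -0.05 without one. The IRF1 target median became -0.28 and the ligand median 0.07 with the stricter limit, and the median of STAT and IRF relatives became -0.09 without a limit. The median of the inhibitors became -0.14 with the stricter limit. No replicate could be left out, and no paired analysis was possible because each group has 1 array. The number of arrays limits the precision.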
